A study of Rattus norvegicus with 12 samples.

Results

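The regions described here are the 3276 rat promoter regions that combine long array probes with a low MeDIP signal in the kidney. They were chosen by measured values: probes on the autosomes were joined into regions wherever their starts lay no more than 1000 bp apart, and a region with at least 3 probes and a span of at most 5000 bp was eligible. Of the 15221 eligible regions, 4704 had a mean probe length of at least 50 bases, and 3276 of these had a level of −0.3 or lower. The level is the log2 ratio of the Cy5 signal to the Cy3 signal, without background correction, minus the median of the array, averaged over the probes of a region and the 12 arrays. The members made up 21.5% of the eligible regions and 69.6% of the long-probe regions, and they held 29651 probes. Positions are on build rn4, counted from 1, and since no gene name accompanies a probe in the files, the regions are named by position.

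In MeDIP, an antibody against 5-methylcytosine captures denatured DNA fragments, and the capture depends on how many methylated CpG sites a fragment carries. A fragment with few CpG sites therefore gives little signal whether or not those sites are methylated, and a low ratio on its own does not separate sparse CpG sites from unmethylated ones. On arrays with probes of similar melting temperature, AT-rich sequence receives longer probes, and mammalian promoters with little CpG are often those of genes used in a single tissue, such as the large families of chemosensory receptors that lie in tandem along a chromosome. The base composition of the members was not measured here, and the probe length alone stands for it.

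The DNA was taken from kidneys of male SHRSP rats, a stroke-prone inbred line that develops high blood pressure, at 6 weeks of age, and 3 arrays were made for each of 4 groups. The mCN-CN offspring were born to dams fed the CN diet (20% casein) in pregnancy and received the CN diet after weaning. The dams of the other 3 groups were fed a diet with 9% casein in pregnancy, and after weaning their offspring received 20% casein (mLP-CN), 9% casein (mLP-LP), or 40% casein (mLP-HP). Between delivery and weaning, every dam and litter received the CN diet, whatever the group. Whole kidney tissue was used, so that a change in cell composition and a change within cells cannot be told apart. The sources used here do not say which litters the offspring came from, and p-values measure the spread between these arrays. On every array, Cy5 carried the precipitated DNA and Cy3 the input DNA.

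The arrays were read in 5 scans. Scan 1 held replicates 1 and 2 of mCN-CN, and scan 2 held mCN-CN replicate 3 together with all 3 mLP-CN arrays (replicates 4, 5, and 6). Scan 3 held only mLP-HP replicate 7. In scan 4, mLP-LP replicate 10 was read with mLP-HP replicates 8 and 9, and scan 5 held replicates 11 and 12 of mLP-LP. Over all probes in regions, between 69.9% and 76.2% were well above background in Cy5 and between 86.2% and 92.3% in Cy3.

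A typical member had 9 probes over 1660 bp, and its probes averaged 53.6 bases (medians over members). The median level of the members was −0.70, compared with −0.03 over all 16055 regions with at least 3 probes, a difference that the choice of members sets. Of the members, 784 (23.9%) had a level of −1 or lower, 66 had a level of −2 or lower, and 15 had a level of −3 or lower. The low level was found on most arrays: 2158 members (65.9%) lay at or below the limit on each of the 12 arrays, and 2812 (85.8%) did so on at least 9. In the log2 table deposited by the authors, whose scale and centring are not stated, all 3276 members had a mean below 0, and 3186 (97.3%) had a mean of −0.3 or lower.

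At the limits, the members passed into their neighbors without a gap. The 3 members nearest to the level limit had levels that round to −0.30, at chr2:127696342-127697939, chr1:97920426-97921726, and chr15:21279985-21281651. The 3 long-probe regions just above the limit, at chr9:14123648-14124971, chr6:4026385-4028140, and chr1:65772679-65774419, also round to −0.30. At the length limit, 68 members had a mean probe length of exactly 50 bases, among them chr18:5148176-5149066 with a level of −1.78, chr5:162599576-162599990 with −1.36, and chr3:30980168-30981909 with −1.24. Just outside it, chr7:38137266-38139446 had a mean probe length of 49.9 bases and a level of −0.34, chr3:55817504-55819538 had 49.9 bases and −0.41, and chr14:2016827-2018532 had 49.9 bases and −0.55.

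The precipitated DNA was dim in the members, and the input was somewhat dimmer too, which by itself would raise the ratio. Across arrays, the median Cy5 intensity of member probes was between 45 and 63, against 94 to 153 for all probes in regions. The median Cy3 intensity of member probes was between 77 and 154, against 95 to 166 for all. On every array, both medians were lower in the members than over all probes, and the Cy5 medians by more. In Cy5, between 48.0% and 56.9% of member probes were well above background, and in Cy3, between 81.8% and 91.5% were. In the 1428 long-probe regions above the level limit, the Cy3 medians (78 to 136) were near those of the members, and the Cy5 medians were 79 to 127.

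A large part of the members was therefore read close to background in the precipitated channel. When a probe was called dim unless it was well above background in both dyes on at least 6 arrays, 48.6% of member probes were dim, compared with 28% over all regions, 32.2% in the long-probe regions above the limit, and 20.3% in the 151 short-probe regions (mean probe length below 47 bases) with a level of −0.3 or lower. Only 3 members had every probe well above background in Cy5 on all arrays, and 2 members had no such probe on any array. At least 3 probes passed the filter in 2868 members (87.5%). When the level was taken from these brighter probes alone, 1276 regions in place of 3276 met the rule. The filter removes probes with low Cy5, which is the numerator of the level, so that a part of this drop is built in.

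Within the members, the level fell with the length of the single probe, which is given as a description, since the same probes set the choice. The 5369 member probes of 45 bases had a mean level of −0.07 (−0.201 to −0.00323 across arrays), and the 10545 member probes of 60 bases had a mean level of −1.15 (−1.56 to −0.79 across arrays). Probe lengths between these gave levels between them, with −0.68 at 50 bases and −0.97 at 55 bases. In the other eligible regions, the level likewise fell from 0.36 at 45 bases to −0.82 at 60 bases. The members lay below the other regions at each length from 45 to 60 bases, a difference that their choice by level produces.

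**Figure D1:**
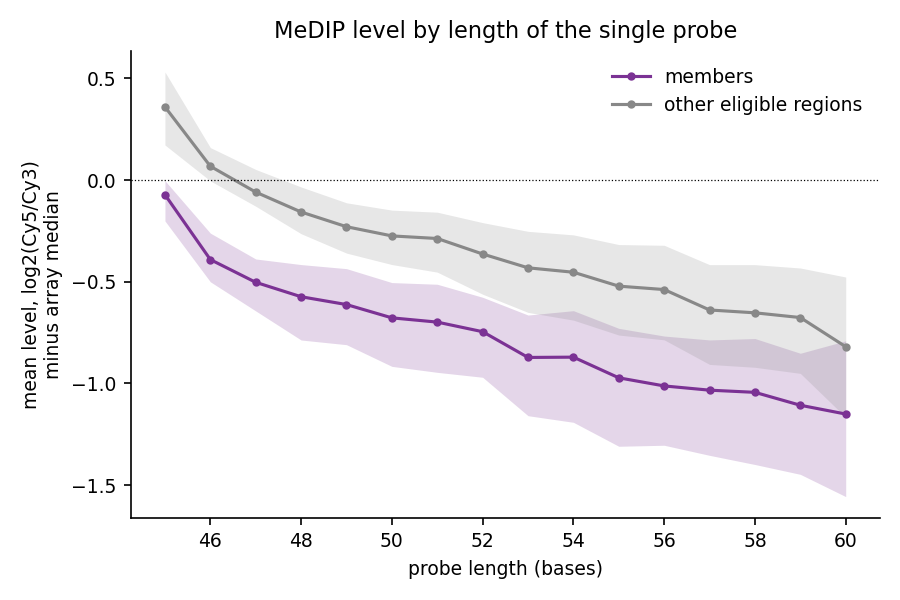
Mean level, as log2(Cy5/Cy3) minus the array median, against the length of the single probe in bases, for members (purple) and the other eligible regions (gray). Lines are means over 12 arrays and bands run from the lowest to the highest array; members fell from −0.07 at 45 bases to −1.15 at 60 bases, and other regions from 0.36 to −0.82.

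The same fall was present inside single promoters. In the 2270 members that held probes of both 45 and 60 bases, the level of the 60-base probes minus that of the 45-base probes of the same region was −1.04 log2 units on average, with arrays between −1.47 and −0.54. The 60-base probes were lower in 1968 of these members (86.7%). The precipitated DNA differed by −2.70 (−3.12 to −2.37 across arrays) and the input by −1.66 (−1.86 to −1.30 across arrays). Both dyes were thus dimmer on the long probes, and the precipitated DNA more so. Among probes well above background in both dyes, the mean difference in level was −0.55 (−0.83 to −0.32 across arrays) over 997 members, and 703 of them (70.5%) were lower at 60 bases. Because this filter removes probes with low Cy5, a part of the smaller difference can come from the filter itself.

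The fall was about as large in the other long-probe regions. In the 1260 long-probe regions above the level limit with both lengths, the 60-base probes differed from the 45-base probes by −1.10 (−1.58 to −0.57 across arrays). The makeup of the members by probe length also differed: 35.6% of their probes were 60 bases long and 18.1% were 45 bases long, against 22% and 33.6% in the long-probe regions above the limit, and 13.7% and 48.7% over all regions. These shares follow in part from the limit on mean probe length.

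Among long-probe regions, those with longer probes were more often members. Of the regions with a mean probe length of 50 to below 52 bases, 974 of 2028 (48%) were members, and of those with 56 bases or more, 729 of 749 (97.3%) were. The median level of the members was −0.54 in the first class and −0.95 in the last. The median Cy3 signal of the members, as a log2 difference from the array median, passed from 0.16 to −0.50 between these classes, and the median Cy5 signal from −0.42 to −1.43. The share of a member's probe readings that were well above background in Cy5 had a median of 62.5% in the first class and 35.8% in the last.

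Most members did not have a uniformly low level. The levels of the probes of 1 member spanned a median of 2.90 log2 units, compared with 2.65 in the long-probe regions above the limit and 2.55 over all regions. At least 1 probe lay above 0 in 2823 members (86.2%), and every probe lay at or below −0.3 in 195 members (5.95%). The widest span was 5.99 at chr2:48543548-48545329, where 9 probes ran from −4.44 to 1.55. At chr7:105849408-105852804, 21 probes spanned 5.93, from −4.80 to 1.13.

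On average, the members were flat along their length, and the other long-probe regions dipped in the middle. In background-corrected, quantile-normalized values, the probes centered in the middle 1 of 3 equal parts of a member differed from those of the outer 2 parts by −0.0035 ± 0.025 (mean ± SD over 12 arrays, 3253 members). In 1414 long-probe regions above the limit, the middle lay below the ends, with a difference of −0.07 ± 0.02 (12 arrays). The difference between these values was 0.07 ± 0.01 (SD over 12 arrays) and was positive on 12 of 12 arrays. It is given as a description without a test, since the level of the same probes on the same arrays divided the regions into these sets. The direction in the members alone depended on the setting, with −0.04 without background correction and 0.03 with a wider middle, the inner 50% of the span. Probes in the middle were longer than at the ends in both sets, with means of 54.8 and 53.3 bases in members and 52 and 51.2 bases in the other set, and the part of probe length in the difference was not tested.

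Members often had another member as their neighbor. The nearest eligible region was also a member for 1814 members (55.4%), while it was a member for 12.5% of the eligible regions that were not. For the long-probe regions above the limit the corresponding shares were 13.4% and 9.44%, and for short-probe regions with a low level they were 3.97% and 0.902%. The distance to the nearest eligible region had a median of 31714 bp for members and 30051 bp for the rest, so that members were spaced about as widely as other regions.

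By chromosome, the members were most frequent on chromosome 3, with 412 of 1342 eligible regions (30.7%), followed by chromosomes 8 (28.4%), 11 (28.4%), and 4 (28.2%). The lowest shares were on chromosomes 12 (26 of 428, 6.07%) and 19 (28 of 396, 7.07%).

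Counted along the order of eligible regions, the members formed 1512 runs, in which no non-member interrupts. Of the members, 968 (29.5%) lay in 47 runs of at least 10, and 1055 (32.2%) stood alone. The longest run held 70 members between chr7:2466677 and chr7:8296626, over 5829950 bp. Their levels ran from −2.81 to −0.48 with a median of −1.44, the lowest median among the 12 longest runs. The next run held 52 members over 4685201 bp of chromosome 8, from position 14647477 to 19332677, with a median level of −0.97.

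Chromosome 3 carried 4 of the 7 longest runs, with 43, 39, 36, and 35 members. The runs of 36, 43, and 35 members followed each other between positions 68578334 and 72898496, where they started at 68578334, 70439020, and 71883240. Another run of 35 lay between positions 427823 and 1407447 of chromosome 20. Members in runs of at least 10 had a median level of −0.92 and a median probe length of 55.8 bases, and members that stood alone had −0.58 and 51.9 bases. A median of 43.9% of the readings of a member in such a run were well above background in Cy5, against 56.7% for members alone.

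**Figure D2:**
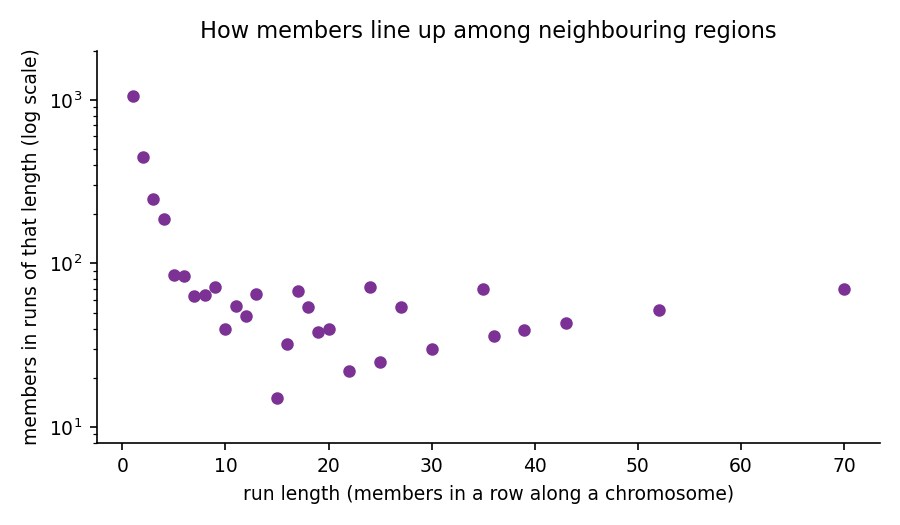
Number of members (log scale) that lie in runs of a given length, where a run is a row of members along a chromosome with no other eligible region between them. At a run length of 1 there are 1055 members, and the longest runs hold 52 and 70.

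The lowest members were of another kind: their input signal was high. The 7 lowest members all lay on chromosome 15 between positions 4980989 and 5857937, and their levels ran from −4.73 to −3.88. Their Cy3 signal was 3.53 to 4.04 log2 units above the array median, while their Cy5 signal was near or below it (−0.97 to 0.08). In intensities, the 45 probes of these 7 regions had a median Cy3 signal between 1473 and 3422 across arrays, which was 12.0 to 21.2 times the median of the same array, and a median Cy5 signal between 79 and 126.

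The lowest of all was chr15:5856423-5857937, with 5 probes of 51.6 bases on average. Its level was −4.80, −4.84, and −4.59 in mCN-CN, −4.47, −4.68, and −4.60 in mLP-CN, −4.71, −4.44, and −4.65 in mLP-LP, and −5.07, −4.98, and −4.92 in mLP-HP. All 12 arrays thus placed it far below the array median, and the 3 mLP-HP arrays were the lowest. The next, chr15:5597810-5599249, had a level between −4.96 on mLP-HP replicate 7 and −4.24 on mLP-CN replicate 5. The following 3 had mean levels of −4.23 at chr15:5550212-5551768, −4.03 at chr15:5294159-5295707, and −3.96 at chr15:4980989-4982562. In each of these 5 regions, the lowest array belonged to the mLP-HP group.

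The same stretch and the positions above it held regions that missed the limit on probe length. At chr15:5178793-5180348, with a mean probe length of 48 bases, the level was −3.52 and the Cy3 signal lay 3.60 log2 units above the array median. Beyond the stretch on its high side, chr15:6288257-6289973, with a mean of 49.9 bases, had a level of −4.26. At chr15:5672589-5674071, with a mean of 46.7 bases, the level was higher, −1.61, with a Cy3 signal 3.30 above the array median. The region next to the stretch on its low side, chr15:4856408-4858090, had a level of −1.15 and a Cy3 signal 2.17 log2 units above the array median, and chr15:4789236-4790820 before it had −0.22 and 0.41.

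Regions with bright input formed few groups elsewhere. The Cy3 signal was at least 2 log2 units above the array median in 24 members (0.733%). Of these, 7 lay on chromosome 15, 7 on chromosome 5 between positions 78091824 and 78823746, with levels from −2.81 to −1.94, and 4 on chromosome 1 between positions 266512 and 1150834, with levels from −3.37 to −2.86. Another 2 lay on each of chromosomes 7 and 9, and 1 on each of chromosomes 10 and 14. The number of genomic copies that each probe matches was not measured here.

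**Figure D3:**
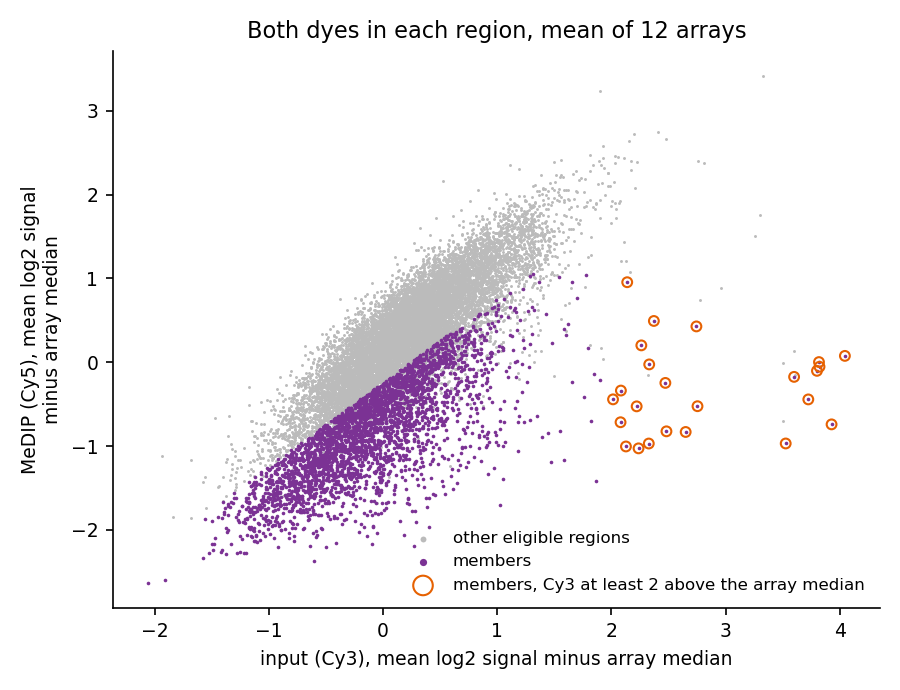
Each point is 1 eligible region, with its input signal (Cy3, horizontal) and its precipitated signal (Cy5, vertical) as mean log2 differences from the array median over 12 arrays. Members (purple) lie below the diagonal by their choice; the 24 circled members have a Cy3 signal at least 2 above the array median, and the 7 of chromosome 15 lie between 3.53 and 4.04.

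In background-corrected, quantile-normalized values, the replicate spread of the members was close to that of all regions. The mean over members was −0.49 in these values and −0.80 in the centered signals. The part of the offset of 50, added in the background correction, in this spread was not tested. The median residual SD of a member was 0.082 in log2 units, compared with 0.077 over all regions. The most reproducible members were chr18:37695262-37696970 (SD 0.025) and chr4:170221674-170223385 (SD 0.025), although only 22.2% and 35.6% of their readings were well above background in Cy5. The least reproducible was chr19:41025510-41026034 with an SD of 0.247, where the mCN-CN values were −0.38, −0.65, and 0.29 and the other arrays lay between −0.37 and −0.22. The next was chr5:162599576-162599990 with an SD of 0.239, where the mLP-CN values were −0.53, −1.17, and −1.20.

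For the comparisons between groups, the signals were background corrected and quantile normalized, and the mean log2(Cy5/Cy3) of each region was tested with limma on all 16055 regions with at least 3 probes. A region was called when its adjusted p was under 0.05. The mLP-CN arrays serve in 3 of the 4 comparisons, so that the results of these 3 are not independent.

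Averaged over the members, the normalized value was −0.50, −0.52, and −0.42 on the mCN-CN arrays and −0.41, −0.46, and −0.44 on the mLP-CN arrays. It was −0.53, −0.48, and −0.55 on the mLP-LP arrays and −0.50, −0.55, and −0.56 on the mLP-HP arrays. The mLP-CN arrays lay above every mLP-LP and mLP-HP array, and they overlapped with mCN-CN through mCN-CN replicate 3, which shared their scan. Group means were −0.48 ± 0.05, −0.44 ± 0.03, −0.52 ± 0.03, and −0.54 ± 0.03 (SD, n = 3), in the same order of groups.

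In the centered signals without background correction, the order was different. The mean level was −0.87, −0.89, and −0.69 in mCN-CN, −0.63, −0.67, and −0.65 in mLP-CN, −0.91, −0.60, and −0.67 in mLP-LP, and −0.98, −1.06, and −1.01 in mLP-HP. The mLP-LP replicate 10, scanned with the mLP-HP arrays, lay nearer to them than to the other 2 mLP-LP arrays, which lay just above and just below the range of mLP-CN. The mCN-CN replicate 3 lay nearer to the mLP-CN arrays of its own scan than to the mCN-CN arrays of scan 1. The part of the scan in these levels was not tested.

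**Figure D4:**
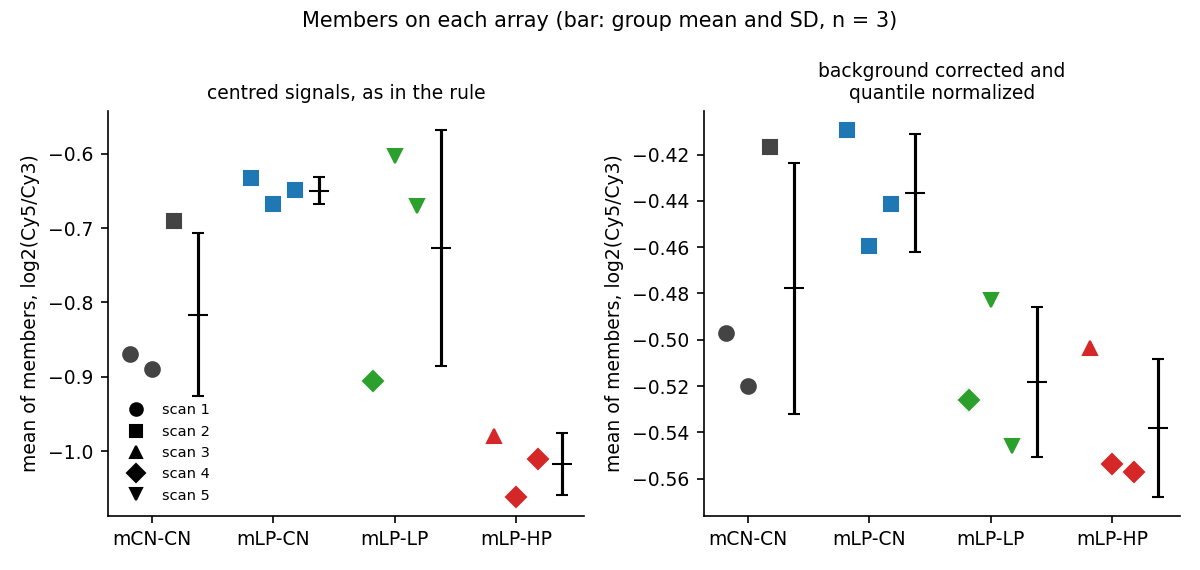
Mean log2(Cy5/Cy3) of the members on each array, from centered signals (left) and from background-corrected, quantile-normalized values (right). Colors are groups, marker shapes are scans, and bars give the group mean and SD (n = 3); on the left, mLP-LP replicate 10 (−0.91) lies near the mLP-HP arrays of its scan, and mCN-CN replicate 3 (−0.69) near mLP-CN, whose scan it shared.

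The effect of maternal protein restriction was addressed by the comparison of mLP-CN with mCN-CN. In limma, 99 members were higher in mLP-CN and 17 were lower, that is, 3.02% and 0.519% of the members, against 1.14% and 2.24% of all regions. The median difference over members was 0.04, and over all regions −0.02. These counts depended on single arrays. Without mCN-CN replicate 3, 484 members were called, with 13.7% of the members higher and 1.1% lower, against 6.07% and 6.09% of all regions. Without mCN-CN replicate 1 or 2 or mLP-CN replicate 4 or 6, the number was 6, 9, 12, or 4, respectively, against 0.33%, 0.386%, 0.367%, and 0.187% of all regions. Arrays of the other groups enter through the shared estimate of the spread, and without mLP-HP replicate 8 or 9 or mLP-LP replicate 10 the number was 65, 63, or 260, against 1.84%, 1.78%, and 7.79% of all regions. Within scan 2, the mean over members of mCN-CN replicate 3 (−0.42) lay inside the range of the 3 mLP-CN arrays. No other scan held both groups. For mCN-CN replicates 1 and 2, which were read without mLP-CN arrays, maternal diet and scan cannot be told apart. A fit with the scan as a fixed block therefore compares these groups through mCN-CN replicate 3 alone, and no effect of diet can be concluded from it. With the scan as a fixed block, 69 members (2.11%) were higher and 187 (5.71%) were lower, against 1.41% and 10.2% of all regions, and the median difference was −0.01.

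The member that rose most was chr14:917492-919233, with values of −0.39, −0.33, and −0.35 in mCN-CN and 0.07, −0.04, and 0.01 in mLP-CN. The groups did not overlap, and mCN-CN replicate 3 lay with its own group although it shared the scan of mLP-CN. The difference was 0.37 ± 0.06 (SE), with an adjusted p of 0.0086 in limma. It rested on weak signals, as 47% of its readings were well above background in Cy3 and 36.4% in Cy5. The next, chr5:140146823-140147725, also rose by 0.37 ± 0.07 (adjusted p = 0.0113 in limma), from −0.72, −0.92, and −0.78 to −0.41, −0.55, and −0.35. In this region of 6 probes, 83.3% of readings were well above background in Cy3 and 33.3% in Cy5.

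The member that fell most was chr5:78166367-78168071, one of the bright-input regions of chromosome 5. Its values were −1.46, −1.55, and −1.44 in mCN-CN and −1.81, −1.86, and −1.86 in mLP-CN, and the difference was −0.36 ± 0.05 (adjusted p = 0.00542 in limma). In Cy3 100% of its readings and in Cy5 77.5% were well above background. The values of the mLP-LP arrays, −1.62, −1.66, and −1.68, and of the mLP-HP arrays, −1.62, −1.58, and −1.69, lay between those of the other 2 groups. The next, chr1:243857887-243859142, had a difference of −0.33 ± 0.07 (adjusted p = 0.0209 in limma). After loess normalization, these 4 differences had adjusted p-values in limma between 0.774 and 0.878.

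In the comparison of mLP-LP with mLP-CN, the groups differ in the diet after weaning and also in the scan, which cannot be told apart. In limma, 681 members (20.8%) were lower in mLP-LP and 63 (1.92%) were higher. Over all regions 7.92% were lower and 11.8% were higher. The median difference was −0.08 over members and 0.02 over all regions. Without mLP-CN replicate 4, mLP-CN replicate 6, or mLP-LP replicate 12, the number of members called in either direction was 322, 395, or 359, against 9.19%, 10.2%, and 10.5% of all regions.

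The member that rose most was chr1:82005624-82007298, with values of −0.56, −0.55, and −0.50 in mLP-CN and −0.18, −0.14, and −0.20 in mLP-LP. Every mLP-LP array lay above every mLP-CN array, the mCN-CN arrays lay between them (−0.29 to −0.23), and the difference was 0.36 ± 0.05 (adjusted p = 0.000463 in limma). In Cy3 100% of its readings and in Cy5 85.2% were well above background. The next, chr2:115305643-115307348, rose by 0.33 ± 0.07 (adjusted p = 0.00445 in limma).

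Of the members that fell most, chr2:191700087-191701399 had values of 0.12, −0.14, and 0.05 in mLP-CN and −0.44, −0.56, and −0.38 in mLP-LP, a difference of −0.47 ± 0.08 (adjusted p = 0.00109 in limma). At chr14:21884768-21886403 the values were −0.05, −0.12, and −0.06 in mLP-CN and −0.57, −0.43, and −0.63 in mLP-LP, a difference of −0.47 ± 0.09 (adjusted p = 0.0021 in limma). Both were dim regions, with 25% and 20.8% of readings well above background in Cy5. At chr14:21884768-21886403, mCN-CN replicate 3 had a value of −0.06, close to the values of mLP-CN, whose scan it shared, and the other mCN-CN arrays had −0.47 and −0.41. After loess normalization, none of these 4 regions was called, with adjusted p-values in limma between 0.342 and 0.738, and the difference at chr1:82005624-82007298 was 0.11.

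The comparison of mLP-HP with mLP-CN gave the most calls. These groups too differ both in postnatal diet and in scan, which cannot be told apart. In limma, 1159 members (35.4%) were lower in mLP-HP and 196 (5.98%) were higher, against 17% lower and 21.3% higher over all regions. The median difference was −0.11 over members and 0.01 over all regions.

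The member that rose most was chr1:175180036-175181685, with values of −0.94, −0.98, and −0.88 in mLP-CN and −0.20, −0.17, and −0.23 in mLP-HP, a difference of 0.73 ± 0.13 (adjusted p = 0.000418 in limma). The mCN-CN values, −0.69, −0.77, and −0.87, lay near those of mLP-CN. The mLP-LP group was split: replicate 10, scanned with the mLP-HP replicates 8 and 9, had −0.22, and replicates 11 and 12 had −0.90 and −1.04. At chr3:16387957-16389198 the values were −0.86, −0.79, and −0.78 in mLP-CN and −0.19, −0.29, and −0.21 in mLP-HP, a difference of 0.58 ± 0.08 (adjusted p = 6.96e-05 in limma). There too, mLP-LP replicate 10 (−0.37) lay nearest to the mLP-HP arrays, and replicates 11 and 12 had −0.72 and −0.65.

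The members that fell most were chr1:71866694-71867069 and chr3:73569994-73571759. The first had values of −1.17, −1.31, and −1.04 in mLP-CN and −1.79, −1.92, and −1.83 in mLP-HP, a difference of −0.67 ± 0.10 (adjusted p = 0.000109 in limma). The second had −0.84, −1.06, and −0.94 in mLP-CN and −1.54, −1.57, and −1.54 in mLP-HP, a difference of −0.60 ± 0.07 (adjusted p = 5.14e-05 in limma). Both had few probes, 3 and 6, and 33.3% and 19.4% of their readings were well above background in Cy5. In both, mLP-LP replicate 10 was the lowest of its group. After loess normalization, the call at chr1:175180036-175181685 was lost (adjusted p = 0.103 in limma) and its difference was 0.32, while the other 3 of these regions were called, with adjusted p-values between 0.0108 and 0.0219.

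Between the 2 postnatal diets, mLP-HP and mLP-LP, no member was called higher or lower in limma (0% of all regions in each direction), and 537 members (16.4%) had an unadjusted p under 0.05, against 19.6% of all regions. The member with the lowest p was chr1:163987638-163989335, with values of −0.51, −0.54, and −0.62 in mLP-HP and −0.33, 0.01, and −0.14 in mLP-LP, a difference of −0.41 ± 0.08 (adjusted p = 0.113 in limma). Without mLP-LP replicate 10, 589 members were called, 212 of them higher (6.47% of members) and 377 lower (11.5%) in mLP-HP, against 10.4% and 11.1% of all regions. Replicate 10 was the only mLP-LP array that shared a scan with mLP-HP, so that without it diet and scan cannot be told apart. Without quantile normalization 1076 members were called, against 16.5% of all regions. Of these, 1071 (32.7% of members) were lower and 5 (0.153%) higher in mLP-HP (all regions: 9.86% lower, 6.65% higher). In Agilent's processed signals 1150 members were called, against 12.7% of all regions. Of these, 1148 (35% of members) were lower and 2 (0.0611%) higher in mLP-HP (all regions: 10.9% lower, 1.74% higher). Within scan 4, the means over members of mLP-HP replicates 8 and 9 were −0.55 and −0.56, and that of mLP-LP replicate 10 was −0.53.

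The direction of the differences was opposite in dim and bright probes of the members. Averaged over the 14401 dim member probes, the normalized value was −0.76, −0.78, and −0.59 in mCN-CN, −0.43, −0.54, and −0.46 in mLP-CN, −0.76, −0.72, and −0.82 in mLP-LP, and −0.78, −0.83, and −0.83 in mLP-HP. The mLP-CN arrays were the highest, with mCN-CN replicate 3 next to them. Averaged over the 15250 bright member probes, it was −0.22, −0.25, and −0.27 in mCN-CN, −0.37, −0.36, and −0.39 in mLP-CN, −0.28, −0.25, and −0.26 in mLP-LP, and −0.23, −0.26, and −0.27 in mLP-HP. Here the mLP-CN arrays were the lowest.

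The median difference over dim member probes was 0.23 for mLP-CN compared with mCN-CN, −0.30 for mLP-LP compared with mLP-CN, and −0.37 for mLP-HP compared with mLP-CN. Over bright member probes it was −0.13, 0.11, and 0.12. The other eligible regions showed the same opposition, with 0.28, −0.32, and −0.40 over dim probes and −0.12, 0.14, and 0.18 over bright probes. The members differed from other regions in holding more dim probes, as given above.

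**Figure D5:**
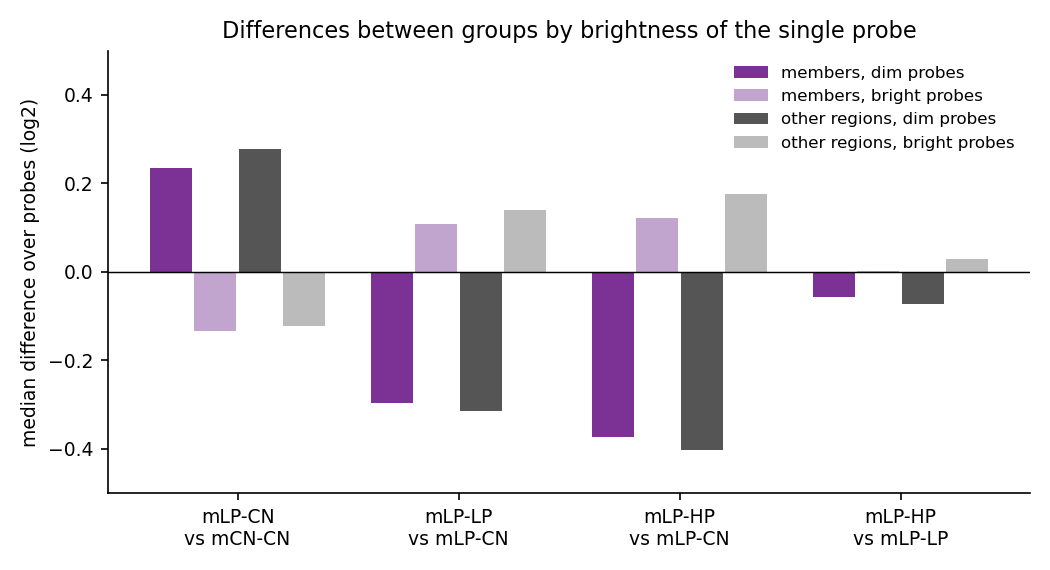
Median difference in log2(Cy5/Cy3) over single probes, for each comparison between groups, in dim and bright probes of members (purple shades) and of the other eligible regions (gray shades). In the 3 comparisons that involve mLP-CN, dim and bright probes lie on opposite sides of 0 in both sets, for example −0.37 and 0.12 in members for mLP-HP compared with mLP-CN.

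Probe length followed the same division. For mLP-HP compared with mLP-CN, the median difference was 0.19 over member probes of 45 bases and −0.36 over those of 60 bases. Among dim probes the lengths gave like values, −0.33 at 45 bases and −0.41 at 60 bases. Among bright probes the values were 0.26 and −0.05.

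With dim probes left out after normalization, the median of all regions itself shifted, by −0.12, 0.13, and 0.15 in the 3 comparisons that involve mLP-CN, and the direction of the members turned. For mLP-CN compared with mCN-CN, 419 of 2868 members were lower and 0 were higher in limma (all regions: 12.9% lower, 0.0451% higher). For mLP-LP compared with mLP-CN, 649 members were higher and 38 were lower (all regions: 28.8% higher, 0.682% lower), and for mLP-HP compared with mLP-CN, 1026 were higher and 193 were lower (all regions: 43.7% higher, 3.79% lower). Relative to the median of all regions, the medians of the members were then −0.02, −0.02, and −0.04.

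When dim probes were left out before centering and quantile normalization, a setting added after seeing the data, 0, 113, and 906 members were called in these comparisons, against 0%, 2.85%, and 27.4% of all regions. After loess normalization within each array, 0, 0, and 160 members were called, against 0%, 0.00623%, and 5.16% of all regions. With the scan as a random block, 149, 5, and 321 members were called, against 6.29%, 0.349%, and 9.69% of all regions. Of the 149, 73 (2.23% of members) were higher and 76 (2.32%) lower in mLP-CN (all regions: 0.959% higher, 5.33% lower). The median difference over members was 0.009 in that comparison. Of the 321, 55 (1.68% of members) were higher and 266 (8.12%) lower in mLP-HP (all regions: 6.71% higher, 2.98% lower). A fixed block for the scan could be fitted only for mLP-CN compared with mCN-CN and mLP-HP compared with mLP-LP. In the scan that held both groups, mCN-CN replicate 3 or mLP-LP replicate 10, respectively, was the only array of its group. The counts of members thus depended on these settings in all 3 comparisons. For mLP-HP compared with mLP-CN, the median difference over members turned positive only with dim probes left out after normalization, and under the other alternatives tried it was negative.

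Among the members, the share called lower was not greatest at the lowest levels. For mLP-HP compared with mLP-CN, 30.6% of the 1265 members with a level above −0.6, 43.1% of the 1227 with a level from −0.6 to above −1, 32.6% of the 718 with a level from −1 to above −2, and 13.6% of the 66 with a level of −2 or lower were called lower. Called higher were 7.19%, 4.56%, 5.71%, and 12.1% of these classes, and over all regions 17% were lower and 21.3% higher. For mLP-LP compared with mLP-CN, the shares called lower were 14.7%, 27.1%, 21.9%, and 9.09%, and those called higher 2.61%, 1.47%, 1.25%, and 4.55%. Over all regions 7.92% were then lower and 11.8% higher. The classes were cut on the level that also chose the members, so that these shares are a description. Members in runs of at least 10 were called lower in 30.4% of cases for mLP-LP and 40.1% for mLP-HP compared with mLP-CN, and members alone in 13.7% and 31.8%.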

How the data were processed

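For each array, the authors deposited scanner output of Agilent Feature Extraction 11.0.1.1, with uncorrected median intensities of Cy5 (precipitated, amplified DNA) and Cy3 (input) and processed intensities. Their deposited log2 table gives processed values in the direction Cy5 over Cy3, with scale and centring not stated. Background was removed with normexp (offset 50) in R 4.3.3 and limma 3.58.1. Flagged spots were treated as missing. Log2 ratios were centered and quantile normalized, and region means were fitted with limma on 12 arrays, with Benjamini-Hochberg adjustment over 16055 regions. The fit was tested on simulated data: of 200 regions shifted by 0.5 in a simulated mLP-LP vs mLP-CN comparison of 16055 regions, 191 were called, with 10 false calls. The simulated spread was independent between arrays and held no scan effect. In the real arrays, the estimated correlation within a scan was 0.533. The simulated false calls therefore do not measure the rate of false calls in these data. Levels, runs, and positions were computed in Python 3.11.15. The 12 arrays, 3 per group, limit the precision.

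The members and tests were chosen with earlier results of these data known. Regions named in the text were the 5 lowest members, those nearest the limits, up to 2 that rose and 2 that fell most in each comparison among called regions whose groups did not overlap (otherwise the lowest p), the longest runs, those with the widest span, and those with extreme residual SD; the runs after the 2 longest, the neighbors of the lowest members, and the regions with bright input were chosen after their values were seen. No sequence of build rn4 was used here, and gene lists were not applied. A permutation test of the shape along regions was planned, and is not given because the sets were divided by the same signals.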

Additional observations from a re-analysis of the deposited data

How the results depend on the processing

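The number of members, 3276, was between 3223 and 3314 with each array left out of the level in turn, and 3287 without flagged spots. It was 2270 when the level came from background-corrected, quantile-normalized values, and 1276 when it came from probes well above background. The difference between middle and ends of a region, in members minus the other long-probe regions, was positive under all alternatives run (0.04 to 0.07). In the members alone the difference was −0.044 without background correction, −0.031 in the authors' table, 0.00049 with dim probes left out, and 0.031 for the inner 50% of the span, and leaving out single arrays gave −0.0074 to −0.0012.

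The counts of members called in limma changed as follows, for comparisons named in the order mLP-CN vs mCN-CN, mLP-LP vs mLP-CN, mLP-HP vs mLP-CN, and mLP-HP vs mLP-LP, with main counts of 116, 744, 1355, and 0. Without background correction, 17 were called in the second, 845 in the third, and 2 in the fourth comparison. The shares of all regions called higher and lower were then 0.642% and 0.131%, 14.4% and 9.75%, and 0.0125% and 0.00623%. For the 845, the shares of members were 7.72% higher and 18.1% lower. In Agilent's processed signals there were 0 in the first and 0 in the second (0% of all regions in both). There were 1974 in the third and 1150 in the fourth. For the 1974, 1.77% of members were higher and 58.5% lower, against 17.2% and 21.1% of all regions. Without quantile normalization there were 388 in the second, 1988 in the third, and 1076 in the fourth. In the second, 4.06% of members were higher and 7.78% lower, against 36.1% and 1.99% of all regions. In the third, 2.93% of members were higher and 57.8% lower, against 43.8% and 16.5% of all regions. Loess gave 0, 0, and 160 in the first 3. The authors' table gave 32 in the second and 2 in the fourth. Over all regions, 0.604% were higher and 0.293% lower in the second, and 0.00623% in each direction in the fourth. With dim probes left out after normalization there were 419 in the first, and with dim probes left out before normalization, chosen after seeing the data, 0 and 113 in the first and the second. The scan gave 256 in the first as a fixed block, and 5 in the second and 321 in the third as a random block. The median over probes gave 2 in the fourth, against 0.081% higher and 0.0249% lower of all regions. With each of the 12 arrays left out in turn, the counts were 4 to 484, 322 to 987, 946 to 1516, and 0 to 589. The 987 stood against 15.3% higher and 10.9% lower of all regions. The 946 stood against 15.4% and 11.5%, and the 1516 against 24.2% and 19.8%.

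The median difference over members changed sign for mLP-CN vs mCN-CN (main 0.04) in processed signals (−0.0055), after loess (−0.030), with dim probes left out after (−0.14) or before normalization (−0.015), and with the scan as a fixed block (−0.013). For mLP-LP vs mLP-CN (main −0.08), it was −0.033 without background correction, −0.033 without quantile normalization, −0.045 in the authors' table, and −0.027 with dim probes left out before normalization, and it turned to 0.014 after loess and 0.11 with dim probes left out after normalization. For mLP-HP vs mLP-CN (main −0.11), it was −0.058 without background correction, −0.38 in processed signals, −0.22 without quantile normalization, −0.017 after loess, −0.068 with dim probes left out before normalization, and −0.15 for the median over probes, and it turned to 0.11 with dim probes left out after normalization. For mLP-HP vs mLP-LP (main −0.02), it was −0.32 in processed signals and −0.18 without quantile normalization, and it turned to 0.0087 with dim probes left out after normalization. With single arrays left out, it kept its sign, with ranges of 0.02 to 0.07, −0.10 to −0.07, −0.12 to −0.09, and −0.04 to −0.0026. The causes were not tested. No paired analysis was possible because the replicate numbers are not shared between groups.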
